A study of Homo sapiens with 32 samples.

Results

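The nuclear receptor superfamily was followed in a human granulosa line kept for weeks with PFOS (perfluorooctane sulfonate), a persistent fluorinated surfactant. The members were 43 receptor genes, found by gene symbol in the deposited tables among 47137 gene entries, of which 18583 had values. The NR4A receptors were not included. The members were listed by name and not by a measured value.

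Nuclear receptors are transcription factors, many of which are switched by small fat-soluble ligands such as steroids, thyroid hormone, retinoids, oxysterols and fatty acids. They bind DNA as homodimers, as monomers or as heterodimers with a retinoid X receptor (RXR), mostly at copies of the half-site AGGTCA or a related sequence, and recruit coactivators or corepressors. In granulosa cells, the somatic cells that surround the oocyte, NR5A1 and NR5A2 drive genes of steroid synthesis, ESR2 is the principal estrogen receptor, and PGR is induced around ovulation.

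The cells were HGrC1, an immortalized non-luteinized human granulosa line. PFOS was given at 0.01 µM, 0.1 µM and 1 µM, with 0.05% DMSO alone as the control, for 6 or 12 weeks, which gave 8 groups of 4 libraries and 32 libraries in all. The 4 replicates were vials of this 1 line frozen on different dates, and the cells of each vial were divided among the 4 treatments, so that the spread between replicates is that of cultures of 1 line and not of donors. All groups grew in medium with 10% fetal bovine serum, which carries ligands of its own. The sources differed on the added hormone, which the labels give as 100 nM estradiol and the study's methods as 100 nM testosterone, so the steroid that the control cells also saw is not settled here.

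Totals were 17907057 to 18553350 expected counts per library. Of 13 granulosa markers, 11 had values, among them GATA4 (mean 74.1 TPM, an abundance scaled for transcript length and depth), WT1 (38.4 TPM) and AMH (13.7 TPM), whereas FOXL2 was at 0.633 TPM, and CYP19A1, the aromatase that makes estradiol, had 1 count at most in any library. FSHR and LHCGR were listed without values, so the labelled cell type was carried by part of its marker list. Liver transcripts divided the libraries. The summed counts of 12 liver genes were 0 to 1 in the 8 libraries of the 6-week control and 6-week 0.01 µM groups and 81 to 1013 in the other 24, and the highest value belonged to replicate 3 of the 12-week control. SERPINA1 and APOA1, the remaining liver markers of 14, were counted in every library. The summed level of 3 leukocyte markers was 30.65 to 40.29 TPM in the 6-week groups and 17.12 to 29.41 TPM in the 12-week groups. This sum was mostly CD68 (mean 21.4 TPM) and CD14 (7.67 TPM), whereas PTPRC had a mean of 0.09 TPM and at most 8 counts. The part of the liver or the leukocyte markers in the results was not tested.

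Promoter sequences are shown for 3 receptors on which the comparisons turn, chosen after their values were seen. NR6A1 was the only receptor that changed at least 2-fold with PFOS, and NR5A2 and PPARG were both lower at 12 weeks in all 4 treatment groups. Each run holds the 250 bases before the outermost RefSeq start on GRCh38.p14, read 5′ to 3′ on the strand of the gene, with the half-site AGGTCA, searched on both strands, in capitals. The windows are chr9:124771312-124771561 (minus strand) for NR6A1, chr1:200027460-200027709 (plus strand) for NR5A2 and chr3:12287118-12287367 (plus strand) for PPARG.
NR6A1: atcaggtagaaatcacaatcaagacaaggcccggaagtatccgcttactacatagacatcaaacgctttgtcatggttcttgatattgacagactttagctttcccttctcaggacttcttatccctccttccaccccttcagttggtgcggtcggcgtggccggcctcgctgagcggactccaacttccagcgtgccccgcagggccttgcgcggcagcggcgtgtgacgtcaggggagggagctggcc
NR5A2: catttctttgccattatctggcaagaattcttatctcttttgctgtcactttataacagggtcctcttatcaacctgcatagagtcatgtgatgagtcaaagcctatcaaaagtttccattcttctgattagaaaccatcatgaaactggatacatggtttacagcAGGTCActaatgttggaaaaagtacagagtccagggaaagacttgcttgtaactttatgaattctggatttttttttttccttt
PPARG: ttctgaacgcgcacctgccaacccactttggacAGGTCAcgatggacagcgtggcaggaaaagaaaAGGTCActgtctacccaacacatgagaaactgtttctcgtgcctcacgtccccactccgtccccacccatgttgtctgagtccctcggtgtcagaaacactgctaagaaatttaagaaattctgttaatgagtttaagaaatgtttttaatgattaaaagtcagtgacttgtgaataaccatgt
The NR5A2 window holds 1 half-site, 84 bases before the start, and the PPARG window holds 2, at 217 and 184 bases. The letters do not occur in the NR6A1 window. Of 39 receptors with a promoter in the table, 7 (17.9%) held the half-site, compared with 3329 of 27305 genes (12.2%). PPARG has 6 starts in the table and NR5A2 has 2, and only the outermost is shown.

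The first question was which receptors these cells express. A receptor was called expressed at a mean of at least 1 TPM over the 32 libraries, a unit that allows for transcript length. By this measure 22 of 43 receptors were expressed, 13 were lower but had more than 3 counts in some library, and 8 had at most 3 counts in every library. The summed level of all 43 was 378.5 to 459.2 TPM per library, and the 5 highest receptors took 46.9% to 51.9% of it.

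The orphan receptors COUP-TFII and EAR2 led the order. NR2F2 (COUP-TFII), which represses many hormone-responsive promoters, was at 57.5 ± 4.49 TPM (SD, n = 32 libraries of all groups) and was above NR2F6 (EAR2) in 32 of 32 libraries. NR2F6 was at 45.1 ± 3.45 TPM. Their relative NR2F1 (COUP-TFI) was far lower, at 2.36 ± 0.719 TPM. The oxysterol receptor NR1H2 (LXRβ) and the common heterodimer partner RXRB followed at 39.6 and 39.4 TPM, and could not be ordered, NR1H2 being the higher in 16 of 32 libraries. RXRA was at 12.5 ± 1.13 TPM, and RXRG was at 0 counts in every library.

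Among receptors for hormones and vitamins, the thyroid hormone receptor THRA (26.8 ± 2.59 TPM) was well above THRB (0.607 ± 0.130 TPM). The glucocorticoid receptor NR3C1 was at 22.8 ± 1.46 TPM, and the mineralocorticoid receptor NR3C2 at 0.794 ± 0.255 TPM. The retinoic acid receptors RARG and RARA were at 21.9 and 17.7 TPM, while RARB had a mean of 0.305 TPM. The vitamin D receptor VDR was at 0.518 ± 0.161 TPM. Estrogen receptor α, ESR1, was at 1.34 ± 0.175 TPM and the progesterone receptor PGR at 1.15 ± 0.147 TPM. Estrogen receptor β, ESR2, had 1 to 7 counts per library (mean 0.123 TPM), which is at or near the floor of 3 counts set here.

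Lipid sensors and clock receptors lay in the middle of the order. PPARG, the receptor that drives adipogenesis and lipid storage, was at 25.2 ± 4.60 TPM, PPARD at 17.8 ± 2.60 TPM and PPARA, the main driver of fatty acid oxidation in liver, at 3.10 ± 0.452 TPM. PPARD and RARA were not separated, the former being higher in 17 of 32 libraries. NR1H3 (LXRα) was at 9.89 ± 0.887 TPM. The heme receptors of the circadian clock, NR1D2 and NR1D1, were at 17.3 and 13.6 TPM, whereas their activating counterparts RORA and RORB had at most 3 and 0 counts. ESRRA, an orphan receptor of mitochondrial genes, was at 14.7 ± 1.98 TPM, and its relatives ESRRB and ESRRG had at most 2 counts each. NR2C1 and NR2C2, testicular orphan receptors, were at 16.8 and 10.2 TPM.

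The receptors that mark steroidogenic cells were low. NR5A2 (LRH-1) had a mean of 0.243 TPM and NR5A1 (SF-1) 0.0944 TPM, with 3 to 33 and 0 to 14 counts per library. NR0B1 (DAX-1), a repressor of both, was at 2.67 ± 0.712 TPM. The germ cell nuclear factor NR6A1 had a mean of 0.149 TPM and 5 to 22 counts per library. The receptors known from liver and gut, NR1I2 (pregnane X receptor), NR1H4 (bile acid receptor), HNF4G and HNF4A, had means under 0.06 TPM, and so had NR0B2, the bile acid induced corepressor, with 1 count at most. NR1I3, the constitutive androstane receptor, was at 0 in all libraries. The photoreceptor gene NR2E3 had a mean of 0.0616 TPM, and NR2E1, of neural stem cells, had at most 1 count. A count of 3 or fewer in each library does not show that a receptor is absent at this depth.

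The second question was whether PFOS changed receptor expression against the control of the same time. Between 27 and 28 receptors had enough counts to be tested. In edgeR's quasi-likelihood test, with p-values adjusted over all genes tested and a call at 0.05 or under, 4 calls were made over 6 comparisons and all 4 were at 0.1 µM. At 0.01 µM no receptor was called at either time (3 and 5 receptors at an unadjusted p under 0.05; 0 by DESeq2 at both times), nor was any gene (background 0% at both times). At 1 µM no receptor was called at 6 weeks (7 unadjusted; 1 by DESeq2, THRA; background 0.28% of genes) or at 12 weeks (4 unadjusted; 0 by DESeq2; background 0.22%).

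**Figure D1:**
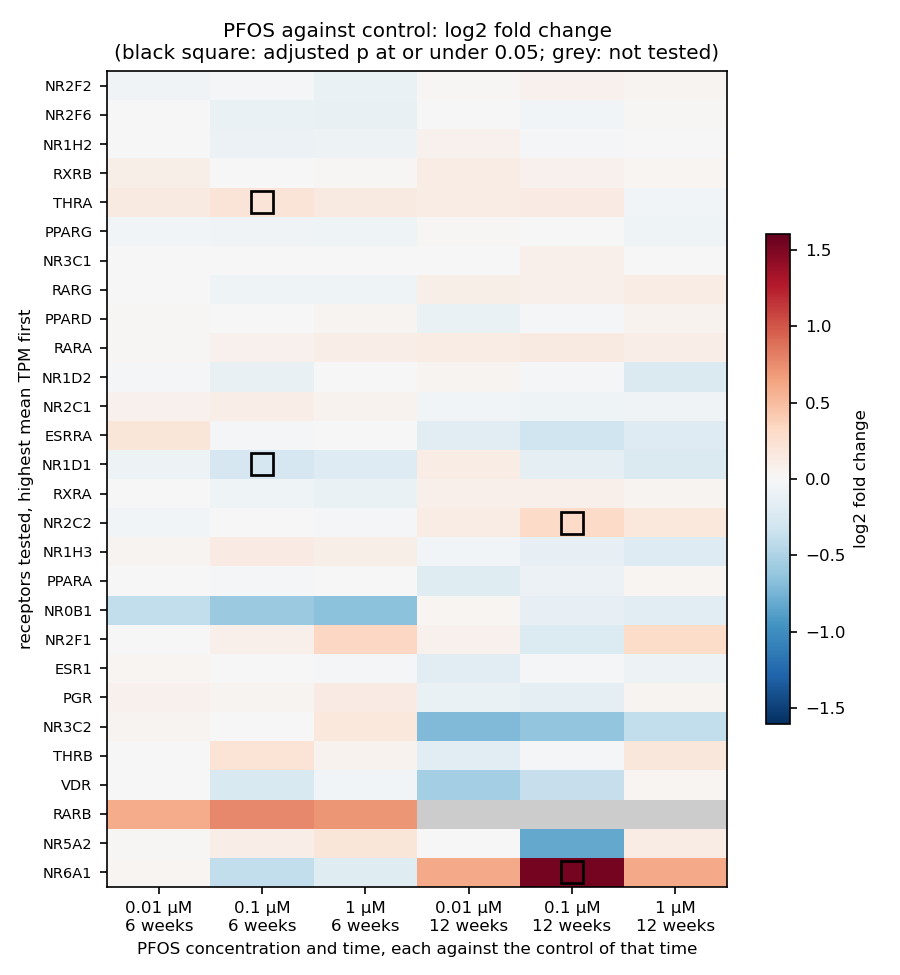
Log2 fold change (colour) of each tested receptor (rows, highest mean TPM first) in the 6 comparisons of PFOS with the control of the same time (columns, n = 4 per group); black squares mark adjusted p at or under 0.05. The 4 squares all lie in the 0.1 µM columns, and NR6A1 at 12 weeks has the strongest colour.

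At 0.1 µM and 6 weeks, 2 of 28 receptors were called, against a background of 4.24% of all genes. THRA had 1159, 1142, 1118 and 1125 counts in the control and 1361, 1269, 1273 and 1305 with PFOS, so that every exposed library was above every control. The log2 fold change was 0.21 ± 0.04 (SE), from 62.3 ± 0.757 to 72.2 ± 1.95 CPM (counts scaled to library size; mean ± SD, n = 4), with an adjusted p of 0.00684 in edgeR. NR1D1 (REV-ERBα), a repressor of clock genes, had 412, 424, 501 and 455 counts in the control and 361, 327, 416 and 369 with PFOS, and here the groups overlapped. It fell by 0.27 on the log2 scale (SE 0.075, edgeR adjusted p = 0.0405). Both changes were under 2-fold. THRA and NR1D1 lie on opposite strands of chromosome 17 and share 1075 bases at their 3′ ends, and since strand use in counting was not stated, reads of the shared stretch cannot be told apart.

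The liver transcripts moved with this comparison, at 0 to 1 counts in the 6-week control and 94 to 147 in the 6-week 0.1 µM group. THRA was at 68.7 ± 1.70 CPM in the 0.01 µM group of the same time, where liver transcripts were also 0 to 1. With 1 µM it was at 69.1 ± 4.41 CPM. The part of the liver transcripts in the THRA change was not tested. NR0B1 had the lowest fold among the receptors not called at 6 weeks, with log2 changes of -0.60 at 0.1 µM (edgeR adjusted p = 0.0872, and 0.0392 with the vial as a block) and -0.65 at 1 µM (edgeR adjusted p = 0.151).

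At 0.1 µM and 12 weeks, 2 of 27 receptors were called, against a background of 1.07% of genes. NR6A1, a repressor of pluripotency genes, had 9, 8.4, 5 and 6 counts in the control and 22, 18, 20 and 22 with PFOS. All 4 exposed libraries were above all controls, although no library passed 22 counts. The log2 fold change was 1.53 ± 0.26 (SE), from 0.385 ± 0.103 to 1.13 ± 0.104 CPM (edgeR adjusted p = 0.00507). It was the only receptor called with a change of at least 2-fold, a rule that 0.0942% of all genes met in this comparison. At 0.01 and 1 µM NR6A1 was at 0.593 ± 0.114 and 0.588 ± 0.120 CPM, and was not called. Liver transcripts were present in all 12-week groups. Without replicate 3 of the control, the library with the highest count of them (1013), the log2 change of NR6A1 at 0.1 µM was 1.40 (edgeR adjusted p = 0.0326).

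NR2C2 (TR4), a receptor that binds the same direct repeats as RXR heterodimers, had 1030, 939, 902 and 863.8 counts in the 12-week control and 1153, 1136, 1271.2 and 1058 at 0.1 µM. The groups did not overlap, and the log2 fold change was 0.31 ± 0.06 (SE; edgeR adjusted p = 0.0173). Without the 12-week control library rich in liver transcripts its adjusted p was 0.0891 in edgeR. NR2C2 overlaps MRPS25 on the other strand by 7023 bases of the gene span.

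**Figure D2:**
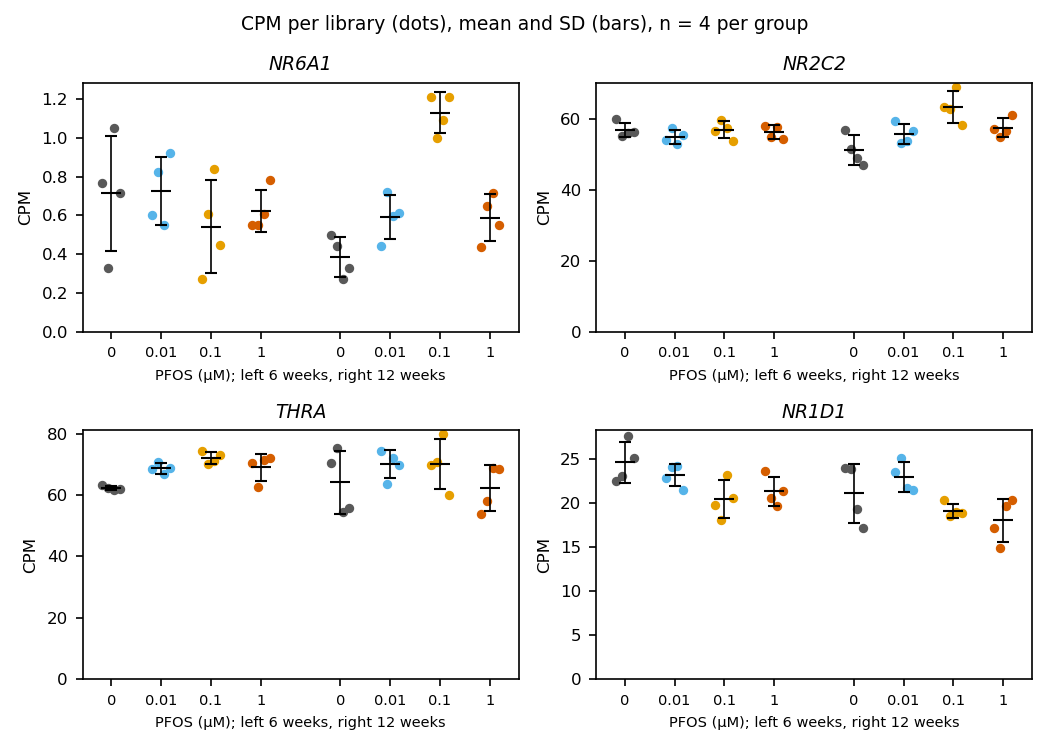
CPM (vertical) of the 4 receptors called in a PFOS comparison, by concentration and time (horizontal); dots are libraries and bars the mean and SD, n = 4 per group. NR6A1 at 0.1 µM and 12 weeks stands at 1.13 CPM against 0.385 CPM in its control, and the other 3 receptors move by less than 2-fold.

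None of the 4 calls was kept under every omission of a vial. Without replicate 1 of every group 3 of the 4 were kept, and without replicate 2, 2 of the 4. Without replicate 3 of every group none was called, with edgeR adjusted p of 0.0789 for THRA, 0.118 for NR1D1, 0.122 for NR6A1 and 0.395 for NR2C2, and without replicate 4 none was called either, with 0.0529, 0.193, 0.101 and 0.069 in the same order. The 3 concentrations shared their control libraries.

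Whether the effect of PFOS differed between the times was tested as an interaction over all 32 libraries. NR6A1 at 0.1 µM was the 1 receptor called of 28 (background 0.208% of genes), its log2 effect being higher at 12 weeks by 1.93 ± 0.42 (SE; edgeR adjusted p = 0.0406). Without the 12-week control library rich in liver transcripts the adjusted p was 0.112 in edgeR, and without replicate 1, 3 or 4 of every group it was also above 0.05. DESeq2 gave NR6A1 no adjusted p there and called NR2C2 (0.02) instead. No receptor was called for 0.01 µM (3 at an unadjusted p under 0.05; 0 by DESeq2; background 0%) or 1 µM (4 unadjusted; 0 by DESeq2; background 0.123%).

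The third comparison set 12 weeks against 6 weeks within each treatment group. The groups shared no libraries across treatments but came from the same 4 vials, so the 4 comparisons are not independent measurements. Time cannot be told apart from passage number, harvest or library preparation. Receptors moved with time far more often than with PFOS, as did genes in general. In the control 12 of 28 receptors were called, 3 higher and 9 lower, with backgrounds of 17.3% of genes higher and 19.3% lower. At 0.01 µM 13 were called, 3 higher and 10 lower (backgrounds 21.4% and 21.3%). At 0.1 µM 15 were called, 6 higher and 9 lower (19.7% and 20.6%), and at 1 µM 12 were called, 3 higher and 9 lower (14.2% and 15.9%). The median log2 change of the receptors was -0.12, -0.13, -0.11 and -0.09 in these 4 comparisons, while that of all genes was between 0.00 and 0.01.

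**Figure D3:**
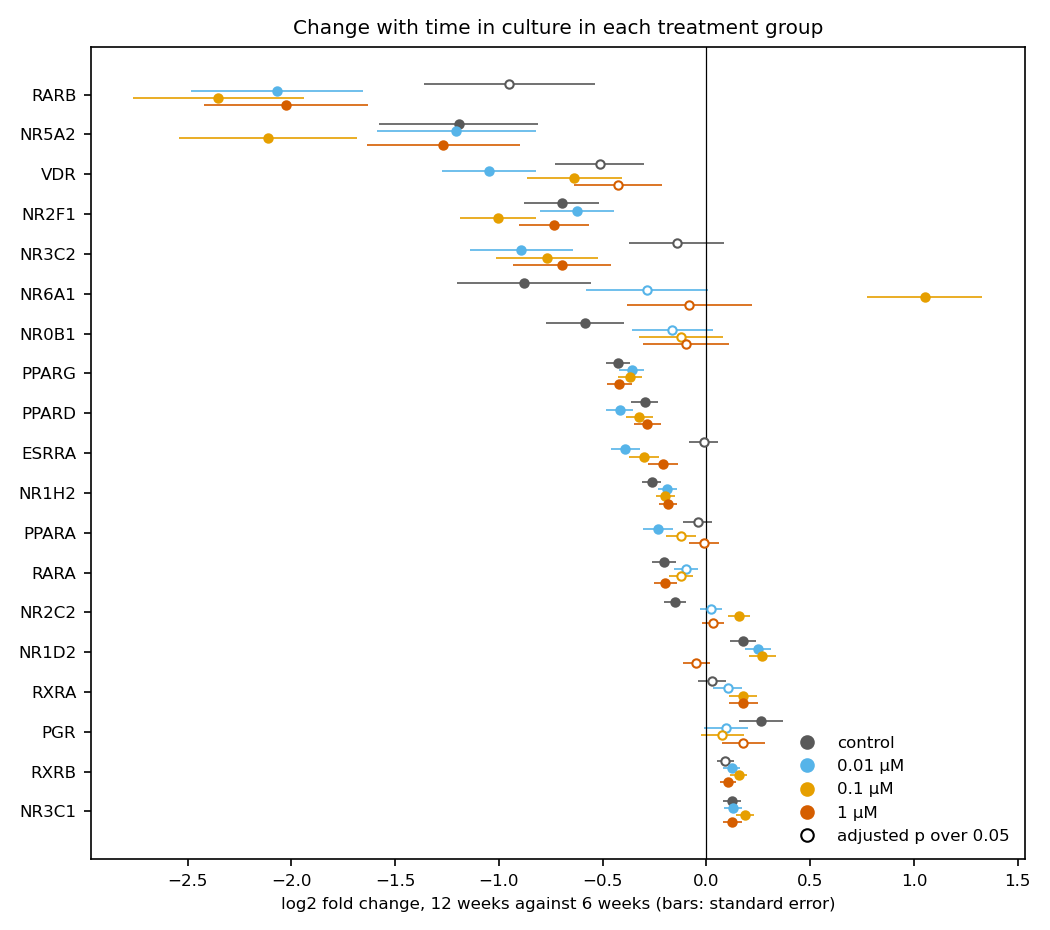
Log2 fold change from 6 to 12 weeks (horizontal; bars are standard errors) of the 19 receptors called in at least 1 treatment group (vertical), in the 4 groups (colours, n = 4 per time); open circles have adjusted p over 0.05. NR5A2, NR2F1, PPARG, PPARD and NR1H2 are filled and negative in all 4 groups, and NR3C1 is filled and positive.

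Lower in all 4 groups were 5 receptors, NR5A2, NR2F1, PPARG, PPARD and NR1H2, and 9.87% of all genes met the same rule. NR5A2, which drives genes of steroid synthesis, had 24, 22, 15 and 13 counts in the 6-week control and 10, 4, 11 and 7 in the 12-week control. Over all 16 libraries of each time it had 10 to 33 counts (median 19) at 6 weeks and 3 to 16 (median 6) at 12 weeks. The log2 change was between -2.11 and -1.19, with edgeR adjusted p of 0.000153 to 0.0136, and the times overlapped at 1 µM only. NR2F1 fell from a median of 86 counts (64 to 120) to 53 (29 to 81), a change of -35.1% to -50.1% in the fits of the 4 groups.

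Of the 5 lipid sensors, PPARG, PPARD and NR1H2 fell in all 4 groups. PPARA was called lower at 0.01 µM only, and NR1H3 was called in no group (log2 -0.18 to 0.11). PPARG had 511 to 640 counts (median 591) in the 16 libraries of 6 weeks and 418 to 482 (median 441) in those of 12 weeks, with no overlap. Its log2 changes of -0.43 to -0.36 had edgeR adjusted p between 6.22e-07 and 6.95e-06. PPARD fell by log2 values of -0.42 to -0.28, and its times did not overlap within any group. NR1H2 changed by log2 values of -0.26 to -0.19, again with no overlap within a group.

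NR3C1 was the 1 receptor called higher in all 4 groups, as were 6.68% of all genes. Its changes were small, with log2 values of 0.12 to 0.19. In the control the times overlapped, at 1656, 1705, 1556 and 1608 counts against 1967, 1820, 1663 and 1645.

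**Figure D4:**
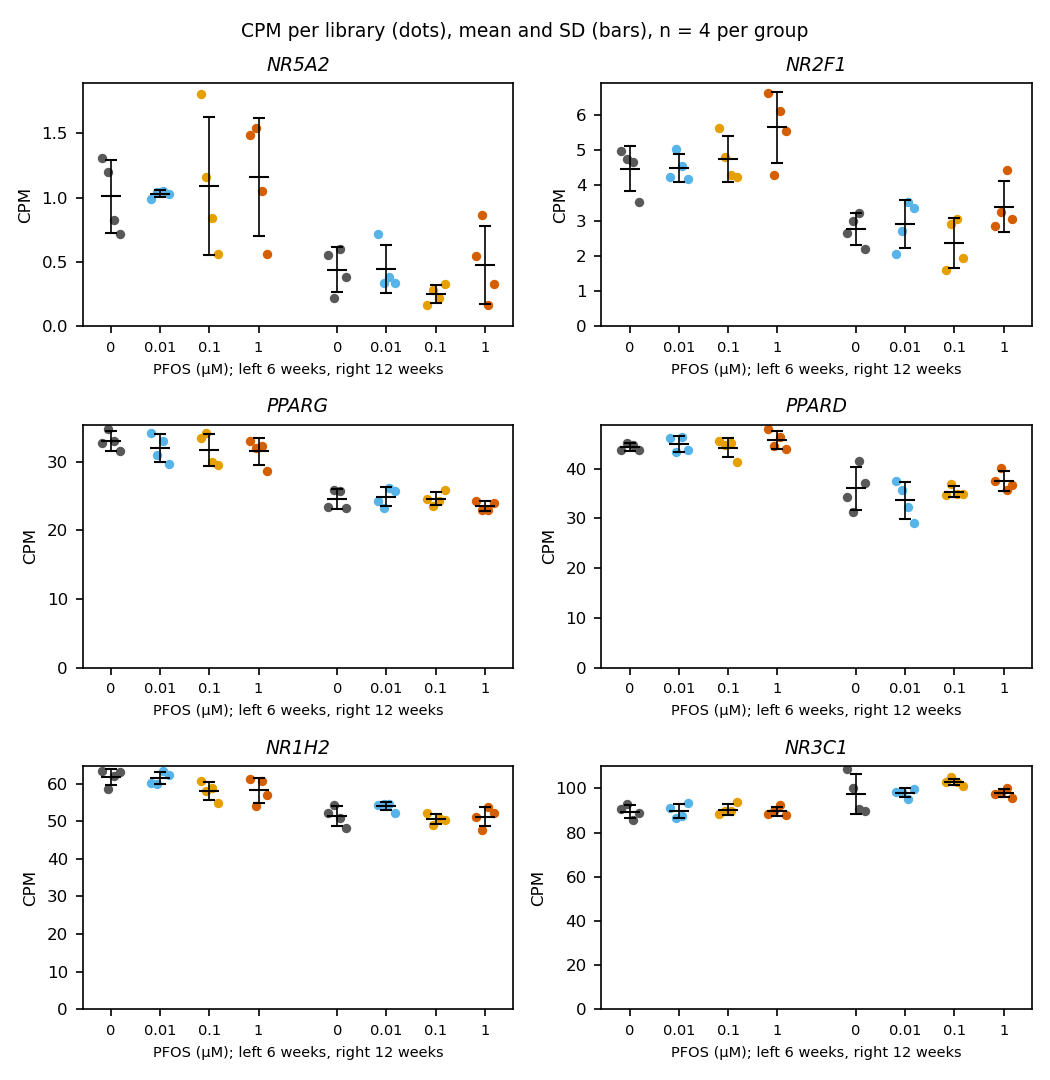
CPM (vertical) of the 6 receptors called in all 4 time comparisons, by PFOS concentration (horizontal), with 6 weeks on the left and 12 weeks on the right of each panel; dots are libraries and bars the mean and SD, n = 4. PPARG lies between 28.6 and 34.8 CPM at 6 weeks and between 22.9 and 26.2 CPM at 12 weeks.

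Other receptors were called with time in some groups. RARB, itself a retinoic acid target, was lower in the 3 PFOS groups with log2 changes of -2.35 to -2.03, and its change in the control was -0.95 (edgeR adjusted p = 0.0687). It had 7 to 24 counts at 6 weeks and 1 to 10 at 12 weeks. For RARB too, no difference from the control in this change was called in the interaction test. NR3C2 and ESRRA were also called lower in the 3 PFOS groups only, but no difference from the control in these changes was called in the interaction test. VDR was lower at 0.01 and 0.1 µM, by log2 values of -1.05 and -0.64. RXRB was called higher in the 3 PFOS groups (log2 0.10 to 0.16), and its change in the control was 0.09 (edgeR adjusted p = 0.073). No difference from the control in the RXRB change was called in the interaction test. RXRA was higher at 0.1 and 1 µM (0.18 in both), and NR1D2 in the control, 0.01 and 0.1 µM groups (0.18 to 0.27). RARA was lower in the control and at 1 µM, and PPARA at 0.01 µM. In the control NR0B1 was lower (log2 -0.58, edgeR adjusted p = 0.0147) and PGR higher (0.26, adjusted p = 0.0452). NR6A1 and NR2C2 were called in opposite directions, lower in the control (log2 -0.88 and -0.15) and higher at 0.1 µM (1.05 and 0.16). The other 9 of 28 receptors, among them NR2F2, NR2F6, THRA, THRB and ESR1, were called in no group. ESRRA, NR1D2 and RARB overlap genes on the other strand, by 284 (TRMT112), 1277 (NKIRAS1) and 28 (TOP2B) bases of the gene span. Reads of these stretches cannot be told apart either.

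In the control and at 0.01 µM the liver transcripts moved with time, from 0 to 1 counts to at least 81. At 0.1 and 1 µM both times held them, at 94 to 147 and 98 to 167 counts at 0.1 µM, and 98 to 123 and 103 to 186 at 1 µM. The 6 receptors called in all 4 groups were thus called there too. The part of the liver transcripts in these changes was not tested.

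Cofactors, targets and clock partners of the receptors were read from textbook lists. None of 20 coregulators was called by edgeR in any of the 6 PFOS comparisons (0 to 3 at an unadjusted p under 0.05 in each, and 0 by DESeq2). With time, the coactivator PPARGC1A, a partner of PPARs and ESRRA in mitochondrial gene expression, was lower in all 4 groups (log2 -1.28 to -0.67), and the methyltransferase PRMT1 (0.18 to 0.33) and the corepressor LCOR (0.19 to 0.27) were higher in all 4. Of the 20 coregulators 7, 7, 10 and 6 were called in the control, 0.01, 0.1 and 1 µM groups, where the shares over all genes were 36.6%, 42.7%, 40.3% and 30.1% in either direction.

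Of 36 textbook targets, 25 were tested at 6 weeks and 24 at 12 weeks. At 0.1 µM and 6 weeks 2 of 25 were called (background 4.24% of genes). The period gene PER1 fell by 0.28 on the log2 scale, and SREBF1, an LXR target that drives lipid synthesis, rose by 0.37. The LXR targets ABCA1, LPCAT3 and MYLIP were not called. At 0.1 µM and 12 weeks 2 of 24 were called (background 1.07%). These were the glucocorticoid targets TSC22D3 and KLF9, which fell by 0.66 and 0.48. The glucocorticoid targets FKBP5, PER1 and SGK1 (log2 -0.05, -0.12 and -0.46) were not called. KLF9 was also lower with 1 µM at 12 weeks (log2 -0.43), as the 1 target called of 24 (background 0.22%). With time 48.0%, 60.0%, 64.0% and 60.0% of the 25 tested were called in the control, 0.01, 0.1 and 1 µM groups, where 36.6%, 42.7%, 40.3% and 30.1% of all genes were called. The PPAR targets did not all move one way. ANGPTL4 (log2 -2.52 to -1.88), PLIN2 (-0.63 to -0.51) and CPT1A (-0.47 to -0.40) were lower in all 4 groups, PDK4 was lower at 1 µM only (-0.42), and ACADM, an enzyme of fatty acid oxidation, was higher in the control (0.29) and at 0.01 µM (0.24). CYP11A1, an NR5A target that starts steroid synthesis, was lower in all 4 groups, from 1.70 to 0.412 CPM in the control (log2 -2.95 to -1.76 over the groups). The other NR5A targets tested did not all move this way. STAR was called lower in the 3 PFOS groups, INHA was called in no group, and AMH was called higher at 1 µM only (log2 0.305). The LXR targets also moved both ways, ABCA1 (-0.64 to -0.38) and LPCAT3 (-0.44 to -0.27) being lower and SREBF1 (0.24 to 0.50) higher in all 4 groups. Likewise the retinoid genes DHRS3 (-0.98 to -0.70) and CRABP2 (0.39 to 0.69) moved in opposite directions.

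Of 15 clock partners, 14 were tested against the controls. At 0.1 µM and 6 weeks 2 of 14 were called (background 4.24% of genes), CRY1 and PER1. They fell by 0.22 and 0.28 on the log2 scale. At 0.1 µM and 12 weeks 1 of 14 was called (background 1.07%), NFIL3, which fell by 0.62. None was called by edgeR at 0.01 or 1 µM (2 to 5 at an unadjusted p under 0.05 in each). DESeq2 called 0 at 0.01 µM and 1 at each time at 1 µM. With time 53.3%, 26.7%, 40.0% and 33.3% of 15 were called in the same order of groups. The shares over all genes were 36.6%, 42.7%, 40.3% and 30.1%. PER2 was higher (0.34 to 0.45) and BHLHE41 lower (-0.53 to -0.26) in all 4 groups. The libraries hold 1 harvest per vial, treatment and time, so a shift in phase and a shift in level of these genes cannot be told apart.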

How the data were processed

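RNA of 32 cultures was sequenced as stranded poly(A) libraries. Per the submitters' processing notes, HISAT2 2.0.4, Bowtie2 2.2.5, RSEM 1.2.8 and GRCh38.p14 were used, and whether counting used strand is not given in the sources used here. The authors deposited expected counts per gene from RSEM and TPM values (abundances scaled for transcript length and depth), and tables of FPKM and normalized counts were not used here. Totals were 17907057 to 18553350 expected counts, so that a gene with few counts is measured with a large counting error.

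Expected counts were rounded to whole numbers and tested with edgeR 4.0.16 (R 4.3.3; TMM scaling, filterByExpr, robust quasi-likelihood fit, Benjamini-Hochberg adjustment over all genes tested). The PFOS comparisons used the 16 libraries of 1 time, and the time and interaction comparisons all 32. A call is an adjusted p at or under 0.05. Levels between genes are in TPM, and values per group in CPM after TMM scaling. On simulated data for 1 µM against control at 6 weeks (12836 genes), all 100 genes changed 4-fold and all 100 changed 2-fold were recovered, with 14 false calls, and smaller changes were not simulated. The changed genes were drawn only from genes with higher counts than NR6A1, NR5A2 and RARB. Recovery at counts as low as theirs was therefore not measured.

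The members and lists were chosen with earlier results of these data known. Every receptor called in any of 13 comparisons, every expressed receptor and the textbook granulosa receptors were named. From the other lists the rule named up to 3 called genes with the lowest adjusted p per comparison, and for time the genes called in all 4 groups, and some others, were named instead after their values were seen. The vials pair the samples, since each culture was divided among treatments. The mean correlation of same-numbered deviations was -0.093 to 0.153 over 12 pairs of groups, and 1 was negative. Alternatives were DESeq2 1.42.0, other filters, other sets of libraries, the vial as a block and leaving out each vial. One more, chosen after seeing the data, left out replicate 3 of the 12-week control.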

Additional observations from a re-analysis of the deposited data

Results flagged for a closer look

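For 30 receptors in 8 groups, 16 of 240 sets of 4 libraries (6.67%) had 1 library set apart by a wide gap from the rest, where chance gives about 1 in 20 for continuous values. In 7 of the 16 the other 3 libraries held the same count, so that any difference met the rule, and the chance value does not apply to these. The flags are given in expected counts. HNF4A, a liver receptor, had 12 counts in replicate 3 of the 12-week control against 0 to 1 in its group, and that library had 1013 counts of 12 liver genes. In 3 other groups HNF4A had 1 count in 1 library (1 µM at 6 weeks, and 0.01 and 0.1 µM at 12 weeks) and 0 in the rest. ESR2 stood apart with 3 counts against 4 in the 6-week control and 2 against 1 at 0.1 µM and 6 weeks, and NR5A1 with 1 count against 5 at 0.1 µM and 6 weeks. NR5A2 had 18 counts against 19 at 0.01 µM and 6 weeks, and 13 against 6 to 7 at 0.01 µM and 12 weeks.

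Among the higher receptors, NR1H3 had 155 counts against 188 to 193 and THRA 1134 against 1274 to 1293, both in replicate 2 at 1 µM and 6 weeks. RXRA had 802 counts against 696 to 703 in replicate 1 of the same group. PGR had 124 counts against 159 to 165 at 0.01 µM and 6 weeks. NR2C2 had 1097 counts against 1016 to 1023.5 in the 6-week control. NR2F6 had 961 counts against 1115 to 1133 at 0.1 µM and 6 weeks, and 1310 against 1106 to 1135 at 0.01 µM and 12 weeks.

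The effect of 0.1 µM PFOS on NR6A1 differed between 12 and 6 weeks by 1.93 on the log2 scale in the interaction test (edgeR adjusted p = 0.0406).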

How the results depend on the processing

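No call of a receptor reversed under the alternatives that gave it an adjusted p, and calls of the other lists were not recomputed. At 0.1 µM and 6 weeks the 2 calls became 0 with all 32 libraries in the fit, 1 with only the groups compared and 0 to 1 when a vial was left out. At 1 µM and 6 weeks the count of 0 became 1 with DESeq2 and 0 to 1 without a vial. At 0.1 µM and 12 weeks the 2 calls became 1 with at least 10 counts required in every library. NR6A1 was not tested under that filter, here or in the interaction. The 2 calls became 1 without replicate 3 of the 12-week control and 0 to 3 without a vial. For the interaction at 0.1 µM the 1 call became 0 with no filter on low counts. It became 0 without replicate 3 of the 12-week control and 0 to 1 without a vial. With time, leaving out a vial gave 7 to 12 calls in the control, 9 to 13 at 0.01 µM, 12 to 13 at 0.1 µM and 7 to 9 at 1 µM. The cause was not tested. With the vial as a replicate block, all 4 PFOS calls and 51 of 52 time calls were kept, NR0B1 was added at 0.1 µM and 6 weeks (3 calls), and the other PFOS counts were 0, 0, 0, 2 and 0. DESeq2 kept 4 of 4 and 48 of 52. A TPM minimum of 0.5 or 2 gave 25 or 20 expressed receptors. Receptors with few counts, such as NR6A1, NR5A2 and RARB, are limited by depth.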
